A study of Mus musculus with 12 samples.

Results

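The genes described here are 37 enzymes and carriers of glycolysis and the pentose phosphate pathway. They were found in a table of 55401 genes by matching its gene identifiers to 37 symbols, and every symbol was matched. Aldoa matched a second identifier as well, which held 2 to 10 counts per library and was left out. The study sequenced RNA of bone marrow derived macrophages, cells grown out of mouse bone marrow for 7 days with macrophage colony-stimulating factor (M-CSF). Its 12 libraries were 6 young, from animals of 8 weeks, and 6 old, from animals of 12 months. The labels give a C57BL6 background and no other genotype or treatment, and M-CSF was in the medium of all 12. The labels number them as biological replicates and do not say that 1 library stands for 1 animal, so the spread behind each p-value is that of these 12 libraries, which may be technical.

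Glycolysis splits glucose into pyruvate with a small yield of ATP, and lactate dehydrogenase turns pyruvate into lactate, which carriers move out of the cell. The pentose phosphate pathway branches off at glucose 6-phosphate, yields NADPH in its oxidative arm and ribose for nucleotides in its non-oxidative arm, and returns sugars to glycolysis. Several steps can be run by more than 1 gene product, and these isoforms differ in tissue and in control. Macrophages are known for raising glycolysis on activation and for using NADPH in the oxidative burst, and dividing cells of many kinds run high glycolysis.

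The promoters of 4 members are printed because these genes rose (Gapdh and Pgk1) or fell (Pfkfb3 and Hk2) with the cell cycle level of a library, as described further on. They are the 2 with the lowest p in each direction whose last 250 bases before the start hold at least 200 bases in a row outside annotated exons. Sequences are from RefSeq (GRCm38.p6). Capitals mark ACGTG or GCGTG on either strand, the core to which hypoxia-inducible factors can bind, read as CACGT or CACGC on the other strand. The stretch of Gapdh lies on the minus strand at chr6:125165774-125166023, that of Pgk1 on the plus strand at chrX:106186850-106187099. Those of Pfkfb3, from the second of its 2 listed starts, and Hk2 lie on the minus strand at chr2:11502102-11502340 and chr6:82774455-82774704.
Gapdh: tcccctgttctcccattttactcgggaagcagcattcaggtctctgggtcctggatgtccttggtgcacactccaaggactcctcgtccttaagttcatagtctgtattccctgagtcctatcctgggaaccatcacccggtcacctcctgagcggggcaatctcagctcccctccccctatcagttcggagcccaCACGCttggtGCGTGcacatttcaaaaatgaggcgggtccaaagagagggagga
Pgk1: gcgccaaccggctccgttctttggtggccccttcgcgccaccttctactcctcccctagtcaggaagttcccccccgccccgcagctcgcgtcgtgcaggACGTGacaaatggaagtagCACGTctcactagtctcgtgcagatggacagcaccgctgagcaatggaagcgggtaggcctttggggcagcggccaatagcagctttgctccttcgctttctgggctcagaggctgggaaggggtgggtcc
Pfkfb3: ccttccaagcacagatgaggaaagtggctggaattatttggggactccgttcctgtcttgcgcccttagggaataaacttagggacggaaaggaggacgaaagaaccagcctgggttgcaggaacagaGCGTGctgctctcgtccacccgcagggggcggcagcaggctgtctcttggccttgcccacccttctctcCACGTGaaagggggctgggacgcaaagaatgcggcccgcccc
Hk2: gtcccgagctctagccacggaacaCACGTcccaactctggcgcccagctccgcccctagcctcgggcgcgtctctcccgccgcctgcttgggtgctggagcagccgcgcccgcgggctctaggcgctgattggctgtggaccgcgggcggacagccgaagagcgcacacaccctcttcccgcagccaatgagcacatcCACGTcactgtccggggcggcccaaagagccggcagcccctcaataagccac
Each of the 4 stretches held 2 places in capitals, and in Pfkfb3 1 of them was the palindrome CACGTG, which holds ACGTG on both strands. Of the 37 members 36 had a promoter in the RefSeq table, 50 promoters in all, each 300 bases long. ACGTG on either strand was in 44% of them, beside 19.6% of all 32851 promoters and 25.5% of the 11963 promoters of genes tested here. GCGTG was in 56%, beside 32.4% and 50%. GGGCGG, the GC box of many housekeeping promoters, was in 66%, beside 35.7% and 62.1%. Among the 26 promoters of members that rose with the cell cycle level 42.3% held ACGTG. So did 40% of the 20 promoters of members that neither rose nor fell. Of the 4 promoters of the 3 members that fell, 3 held it (75%), which were the 2 of Pfkfb3 and that of Hk2. Each start of a gene is counted separately, and 3 genes are too few to compare. A match is a stretch of letters and not a measured binding site.

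Assigned counts ranged from 22.2 to 25.2 M in young and from 19.3 to 22.4 M in old libraries (M, 1000000 counts). Macrophage markers were high in all 12 (29882 to 48931 CPM, counts per 1000000, summed over 12 genes). The cell cycle level, the mean log2 CPM of 54 cell cycle genes of which none is a member, was highest in young replicate 6 (6.49), old replicate 2 (5.86) and old replicate 3 (5.30) and ranged from 3.88 to 4.96 in the other 9. Young replicate 6 was also lowest in the summed macrophage markers (29882 CPM, against 41202 to 48931 in the other young libraries) and in 16 neutrophil markers (74.3 against 158 to 228 CPM). The 37 members held 1.40% of counts in young replicate 6, 1.04% in old replicate 2 and 0.761% to 0.932% in the others. In bulk RNA, more cells of a type and more RNA per cell cannot be told apart.

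Levels of different genes are compared per length, in CPM per kilobase of gene model, as the mean of 12 libraries. Steps from aldolase to lactate dehydrogenase held 4 of the 5 highest levels. Aldoa, which splits fructose 1,6-bisphosphate, was at 369.9 CPM per kilobase, Pkm, the pyruvate kinase, at 277 and Gapdh, glyceraldehyde phosphate dehydrogenase, at 243. The transaldolase Taldo1 of the pentose phosphate pathway came next (197), ahead of the lactate dehydrogenase Ldha (174) and the hexokinase Hk3 (139). The enzyme that opens the oxidative pentose phosphate arm, G6pdx, stood at 125, close to the triose phosphate isomerase Tpi1 (111). Pgd, the second dehydrogenase of that arm, was at 85.9, and its lactonase Pgls was at 28.8. Pgk1, phosphoglycerate kinase, was at 84.1, Gpi1, the glucose 6-phosphate isomerase, at 81.0, Eno1, the enolase, at 70.0 and Pgam1, phosphoglycerate mutase, at 55.8. The phosphofructokinases lay lower, with Pfkl at 8.85, Pfkp at 7.48 and Pfkm at 6.92. Tkt, the transketolase, was at 67.8. Slc16a1 (1.68), Rpia (2.22), which makes ribose 5-phosphate, Bpgm (2.43), which makes 2,3-bisphosphoglycerate, and Slc2a3 (2.46) were the lowest of the 37. Part of this order rests on the lengths used. With the length of the principal transcript in place of the whole gene model, Aldoa (713), Gapdh (707), Pkm (570), Taldo1 (347) and Ldha (326) still led, with Gapdh now ahead of Pkm. On that scale Pgd (249.8) lay above G6pdx (145), Pgls reached 122, and Rpia (6.49) was no longer among the lowest 4, whose place Ldhb (5.54) took.

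**Figure D1:**
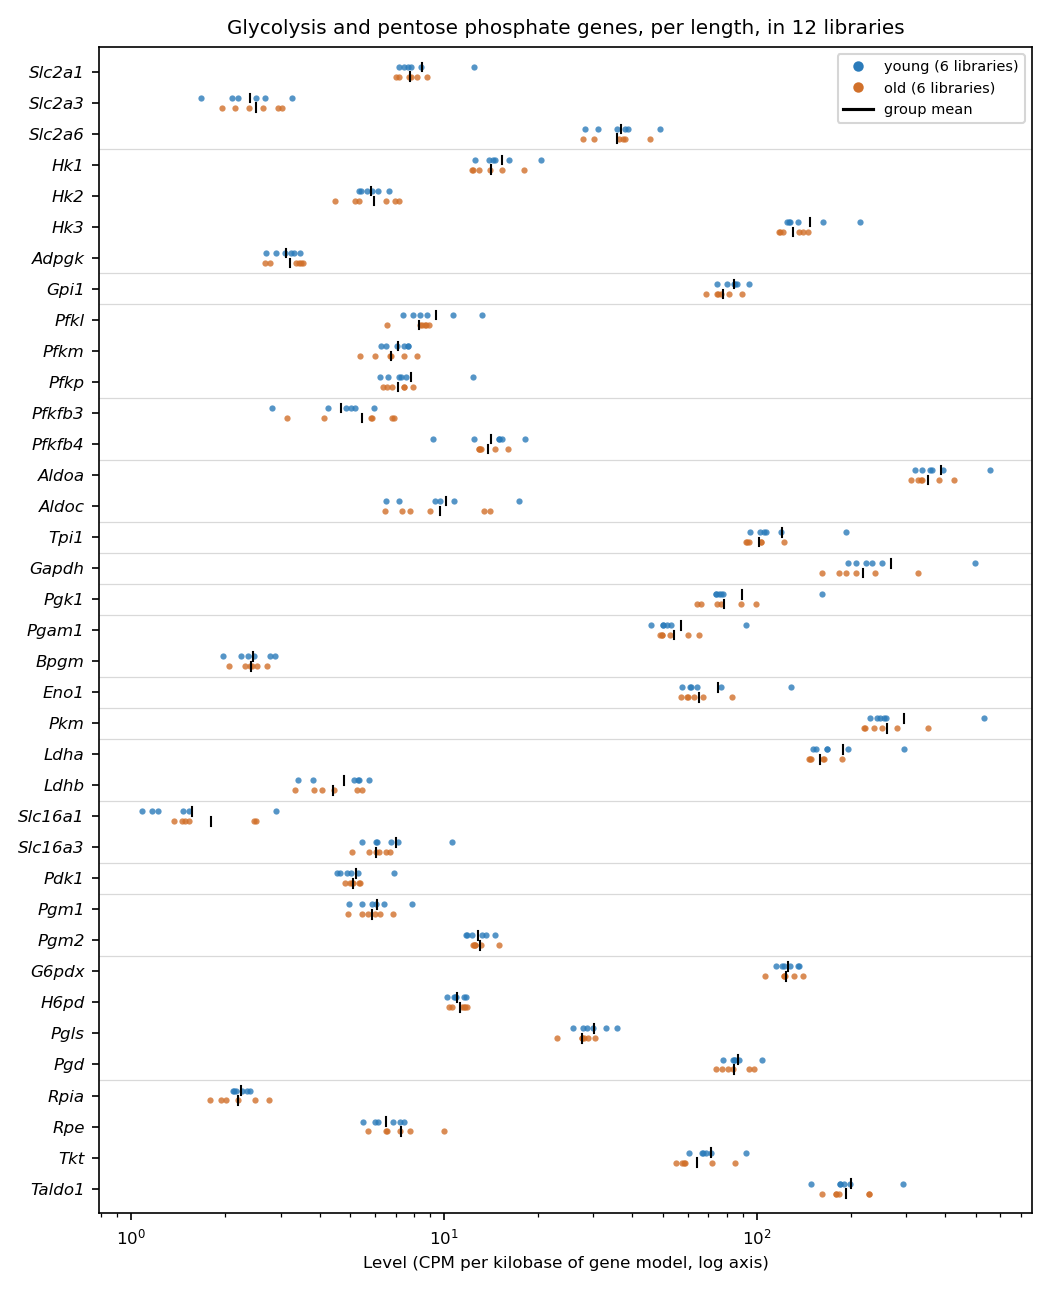
Levels of the 37 members in CPM per kilobase of gene model on a log axis, with 1 point per library (blue young, orange old) and a black tick at each group mean; grey lines part the steps. Aldoa, Pkm and Gapdh are highest, the 2 groups overlap for every gene, and the point far to the right in many young rows is young replicate 6.

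Counts of some members are uncertain because reads that align in several places were not counted. Of all stretches of 50 bases in the transcripts, those found in another annotated gene as well made up 53.9% for Pgk1, 36.2% for Pgam1, 26.0% for Eno1, 25.8% for Pkm, 24.7% for Gapdh and 20.99% for Ldhb. Pkm also shares 15.3% of its exon bases with an overlapping gene, Pgls 20.6% with Fam129c, Rpe 17.9% with Kansl1l, Pgm1 13.6% with Itgb3bp and G6pdx 13.6% with Ikbkg. Records with several alignments were most frequent in young replicate 6 (14.2%) and old replicate 2 (13.4%), and 11.5% to 12.6% elsewhere; their part in the results was not tested.

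The first question was which isoform carries each step. Hk3 made up most of the hexokinase transcripts per length, with 87.3% ± 1.03 in young and 86.6% ± 1.07 in old libraries (SD, n = 6 each). Hk1, the hexokinase of most tissues, took 9.11% ± 0.574 and 9.42% ± 1.04, and Hk2, the inducible form bound to mitochondria, took 3.57% ± 0.679 and 4.01% ± 0.927. The order of these 3 was the same in each of the 12 libraries. Adpgk, which phosphorylates glucose with ADP in place of ATP, was at 3.17 CPM per kilobase, below Hk2 at 5.90, and this order reversed with principal transcript lengths (12.2 against 6.39). The share of Hk1 also moved with the lengths, from 9.26% over all libraries to 16.5% with principal transcript lengths and 18.7% of raw counts, and Hk3 still led with 80.2% and 75.9%.

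Phosphofructokinase, the committed step, was shared by 3 genes. Pfkl, the liver form, took 38.3% ± 2.99 in young and 37.4% ± 2.61 in old libraries, Pfkp, the platelet form, 31.9% ± 3.14 and 32.2% ± 3.34, and Pfkm, the muscle form, 29.8% ± 5.198 and 30.3% ± 2.21 (SD, n = 6 each). This order rests on the lengths used. With the length of the principal transcript in place of the whole gene model, Pfkp led with 50.1% over all libraries, against 32.9% for Pfkl and 16.98% for Pfkm. Of raw counts Pfkp held 54.8%.

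The other steps were more one-sided. Aldoa held 97.5% ± 0.549 of aldolase transcripts in young and 97.4% ± 0.586 in old libraries, over Aldoc, the brain form. Ldha held 97.4% ± 0.789 and 97.3% ± 0.362 of lactate dehydrogenase, over Ldhb, the form of oxidative tissues. G6pdx held 91.9% ± 0.409 and 91.6% ± 1.09 against H6pd, which serves the endoplasmic reticulum. For the exit of lactate, Slc16a3 (MCT4), the export form, exceeded Slc16a1 (MCT1), whose share was 17.8% ± 2.51 and 23.0% ± 6.70. Pfkfb4 exceeded Pfkfb3 in all 12 libraries, and Pfkfb3 took 24.8% ± 2.46 and 28.0% ± 4.95. Both make fructose 2,6-bisphosphate, the activator of phosphofructokinase, and the product of Pfkfb3 favours its synthesis over its breakdown most strongly.

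Among the 3 glucose carriers the ubiquitous Slc2a1 (GLUT1) took 18.2% ± 5.55 in young and 17.1% ± 2.56 in old libraries. Slc2a6, a carrier of lysosomal membranes in macrophages, was the most abundant of the 3 per length at 36.3 CPM per kilobase, ahead of Slc2a1 at 8.15 and Slc2a3 (GLUT3) at 2.46. In young replicate 6 the share of Slc2a1 reached 28.4%, and the other 11 libraries ranged from 12.8% to 21.2%.

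**Figure D2:**
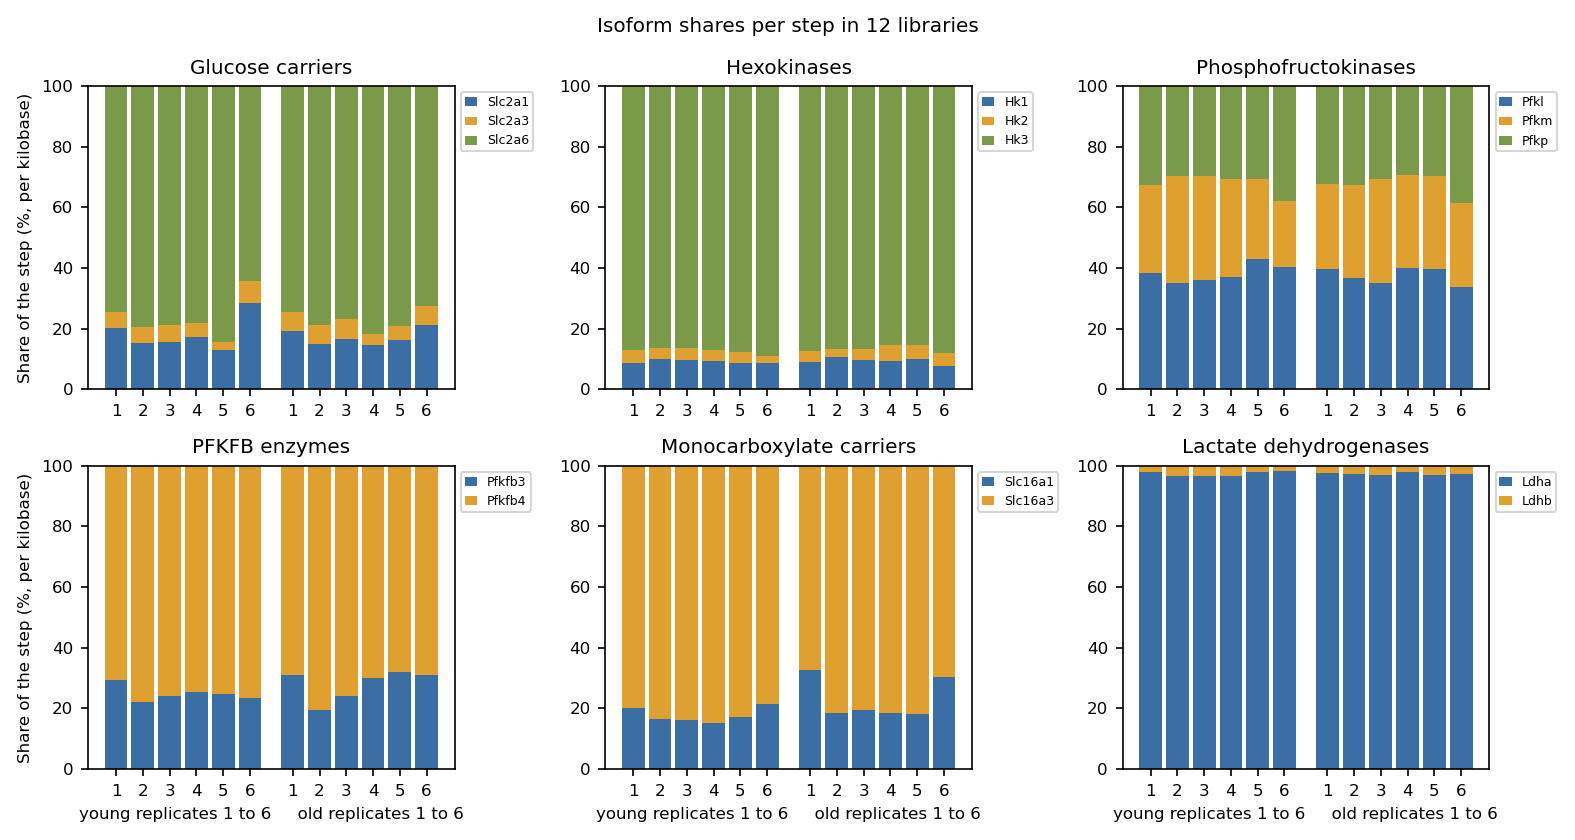
Isoform shares in percent of the step's CPM per kilobase, stacked to 100, for 6 steps in each of the 6 young and 6 old libraries. Hk3 and Ldha fill most of their steps in every library, and the phosphofructokinases split nearly evenly on this length scale.

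No isoform share passed the test for a difference between the ages. Of 12 shares tested with a two-sided exact permutation test over every assignment of 6 and 6 libraries, 0 passed an adjusted p of 0.05 and 0 had an unadjusted p below 0.05. The Slc16a1 share had the lowest exact p (0.115, adjusted 0.857), with old replicates 1 (32.7%) and 6 (30.4%) above all others and the remaining 4 old libraries between 18.2% and 19.3%. The Pfkfb3 share followed (exact p = 0.184, adjusted 0.857), 3.12 percentage points higher in old. The same result, 0 shares called, was obtained from raw counts and from principal transcript lengths.

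Against the cell cycle level 2 shares moved. The Hk2 share was lower where the level was higher, from 2.27% in young replicate 6 and 2.66% in old replicate 2 to 5.21% in old replicate 4, the library with the lowest level. Over 12 libraries its Pearson's r was -0.90 (permutation p adjusted over 12 shares 0.00096) and Spearman's rho -0.83 (adjusted 0.0115), and r was -0.72 without the 2 libraries farthest from the median level. The Pfkfb3 share fell likewise (r = -0.73, adjusted permutation p = 0.0253; rho = -0.85, adjusted 0.0115), and without those 2 libraries r was -0.73 but no longer passed (adjusted permutation p = 0.0537). The other 10 shares did not pass; the Aldoa share came nearest (r = -0.68, adjusted permutation p = 0.0648). With shares and levels centred within age the Pfkfb3 share had an adjusted p of 0.0563 and the Hk2 share 0.00312. Without young replicate 6 and old replicates 2 and 3 together, r was -0.67 for Hk2 and -0.76 for Pfkfb3 over 9 libraries, and neither passed (adjusted permutation p = 0.120 for each).

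Young and old macrophages were then compared gene by gene. By the quasi-likelihood test of edgeR 0 of the 37 members had an adjusted p below 0.05, and none had an unadjusted p below 0.05; DESeq2 called none either. Over all 12620 genes tested 0.0158% passed the adjusted threshold and 5.47% an unadjusted p of 0.05. Of the members 29 had a log2 fold change below 0 (lower in old) and 8 above, with a median of -0.07; over all genes 52.5% were below 0 with a median of -0.01. The 29 members outside the pentose phosphate pathway had a median of -0.11 and the 8 of that pathway -0.03. Young and old ranges overlapped for every member, while 0.206% of all genes did not overlap.

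Gapdh lay between 809.7 and 2054 CPM in young libraries (median 943) and between 666 and 1348 CPM in old (median 827). The 2 highest values came from young replicate 6 and old replicate 2. Its log2 fold change was -0.30 with a standard error of 0.24 (edgeR adjusted p = 0.787), the most negative of the 37. Pfkfb3 had the most positive, 0.22 with a standard error of 0.21 (edgeR adjusted p = 0.812), with 21.3 to 45.1 CPM in young (median 37.4) and 23.8 to 52.2 CPM in old libraries (median 44.3). The ranges of the 2 groups thus overlapped for both genes. Among pentose phosphate members G6pdx was at 388 ± 25.8 and 383 ± 35.1 CPM and Rpe, the ribulose 5-phosphate epimerase, at 20.3 ± 2.38 and 22.7 ± 4.64 CPM (young and old, SD, n = 6 each). With the 3 libraries of highest cell cycle level left out, 7 members (18.9%) and 18.1% of all genes had an unadjusted p below 0.05, and still 0 members passed after adjustment. Standard errors of the members' log2 fold changes ran from 0.06 (H6pd) to 0.26 (Aldoc), so small differences were not detectable.

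The second question was how the members vary with proliferation. The slope of each gene on the cell cycle level was fitted with age as a term, as the log2 change per unit of the level, which is a doubling of the mean cell cycle expression. Of the 37 members 18 rose (48.6%) and 3 fell (8.11%) at an edgeR adjusted p below 0.05; over all genes 17.8% rose and 15.1% fell, 32.9% in all. Slopes were above 0 for 30 members and for 50.9% of all genes. The median slope was 0.16 over the members and 0.00 over all genes tested. The 29 members outside the pentose phosphate pathway had a median of 0.20 with 15 rising and 3 falling, and the 8 of that pathway 0.06 with 3 rising. With scaling by library size alone 21 members rose and 2 fell, and the share of rising calls among all genes went from 54.0% to 72.8%.

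**Figure D3:**
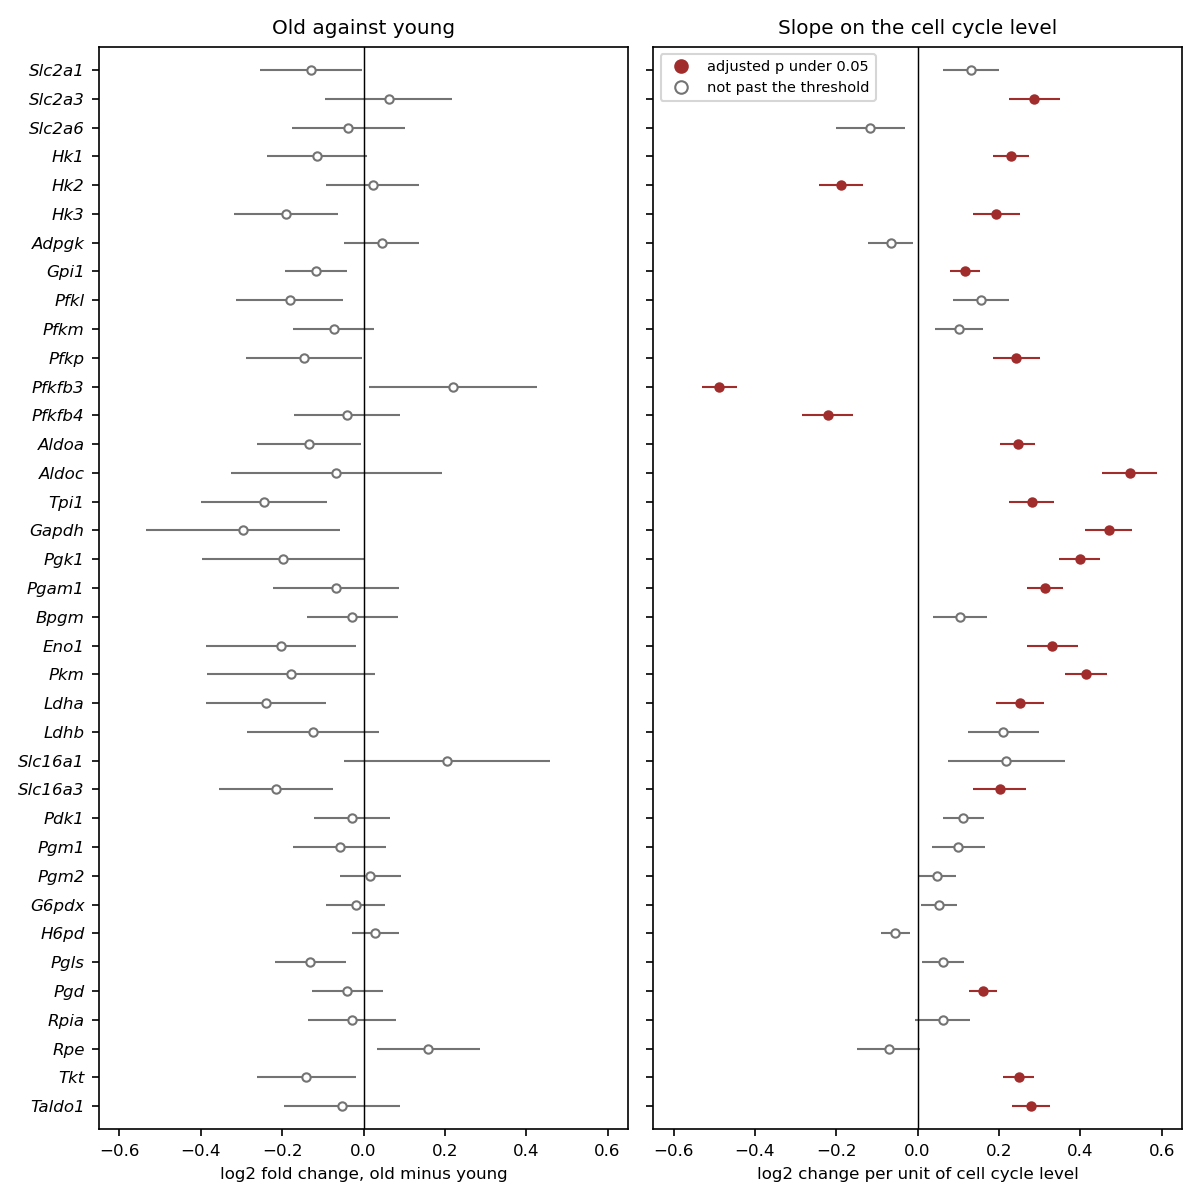
Left, log2 fold change of each member, old minus young; right, log2 change per unit of cell cycle level; bars are 1 standard error and filled red points have an edgeR adjusted p under 0.05. No member is filled on the left, and 18 to the right and 3 to the left of 0 are filled in the right panel.

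From aldolase to lactate dehydrogenase 9 of 11 members rose, beside 17.8% of all genes. Of these members Tpi1, Eno1 and Ldha did not pass without young replicate 6, as described further on. Gapdh rose by 0.47 per unit (standard error 0.06, edgeR adjusted p = 1.66e-05), Pkm by 0.41 (0.05, 1.9e-05), Pgk1 by 0.40 (0.05, 2.79e-05), Eno1 by 0.33 (0.06, 0.00102) and Pgam1 by 0.31 (0.04, 6.66e-05). Pkm reached 2665 CPM in young replicate 6 and 1764 CPM in old replicate 2, and its median was 1259 CPM among young libraries and 1218 CPM among old ones. Pgk1 was at 362 CPM in young replicate 6, while the other 5 young libraries lay between 166 and 174 CPM. Old replicates 2 (223 CPM) and 3 (200 CPM) held the highest old values of Pgk1. Aldoc had the steepest rise, 0.52 per unit (standard error 0.07, edgeR adjusted p = 3.29e-05), from 21.1 CPM in old replicate 4 to 56.7 CPM in young replicate 6. Aldoa (0.25), Tpi1 (0.28) and Ldha (0.25) rose less steeply, while Bpgm (0.10, edgeR adjusted p = 0.252) and Ldhb (0.21, edgeR adjusted p = 0.0758) did not pass.

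Above aldolase, the hexokinases differed in direction. Hk1 (0.23 per unit, edgeR adjusted p = 0.000997) and Hk3 (0.19, 0.0179) rose, and Hk2 fell by 0.19 (standard error 0.05, edgeR adjusted p = 0.0135). Hk2 lay between 26.7 CPM in old replicate 2 and 42.9 CPM in old replicate 4. With scaling by library size alone Hk2 did not pass (-0.13, edgeR adjusted p = 0.0584). Of the phosphofructokinases, all with slopes above 0, Pfkp rose (0.24, edgeR adjusted p = 0.00463), and Pfkl (0.16, 0.094) and Pfkm (0.10, 0.202) did not pass. Gpi1 rose slightly (0.12, edgeR adjusted p = 0.0209).

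Both members that make fructose 2,6-bisphosphate, Pfkfb3 and Pfkfb4, went the other way. Pfkfb3 fell by 0.49 per unit (standard error 0.04, edgeR adjusted p = 6.34e-07), the lowest p of the 37. It was at 21.3 CPM in young replicate 6, 23.8 CPM in old replicate 2 and 31.2 CPM in old replicate 3, and at 32.1 to 52.2 CPM in the other 9 libraries. The 3 libraries of highest level thus held the 3 lowest values. Pfkfb4 fell by 0.22 (0.06, edgeR adjusted p = 0.0128), with its lowest value, 44.8 CPM, in young replicate 6 and 60.8 to 88.2 CPM elsewhere. Of the other two genes of this enzyme family, which are not members, Pfkfb1 rose by 0.47 (edgeR adjusted p = 0.00381) from a low level (1.35 to 4.12 CPM), and Pfkfb2 did not pass (-0.085, edgeR adjusted p = 0.389).

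Of the carriers, Slc2a3 (0.29, edgeR adjusted p = 0.00261) and the lactate exporter Slc16a3 (0.20, 0.0278) rose. Slc2a1 (0.13, edgeR adjusted p = 0.16), Slc2a6 (-0.12, 0.322) and Slc16a1 (0.22, 0.266) did not pass. Pdk1, which shuts pyruvate out of the mitochondrial dehydrogenase, had a slope of 0.11 (edgeR adjusted p = 0.103). The phosphoglucomutase Pgm1, which links glycolysis to glycogen, had 0.10 and Pgm2 had 0.05 (edgeR adjusted p = 0.259 and 0.452).

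In the pentose phosphate pathway the enzymes that exchange carbon with glycolysis moved with the level. Taldo1 rose by 0.28 per unit (standard error 0.05, edgeR adjusted p = 0.00037) and Tkt by 0.25 (0.04, 0.000132), both highest in young replicate 6 (637 and 676 CPM) and next in old replicate 2 (497 and 627 CPM). Pgd rose by 0.16 (0.03, edgeR adjusted p = 0.00219). G6pdx did not pass (0.05 with a standard error of 0.04, edgeR adjusted p = 0.391): young replicate 6 held 371 CPM, within the 354 to 419 CPM of the other young libraries. Pgls (0.06), Rpia (0.06), H6pd (-0.05) and Rpe (-0.07) did not pass either (edgeR adjusted p from 0.249 to 0.514).

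**Figure D4:**
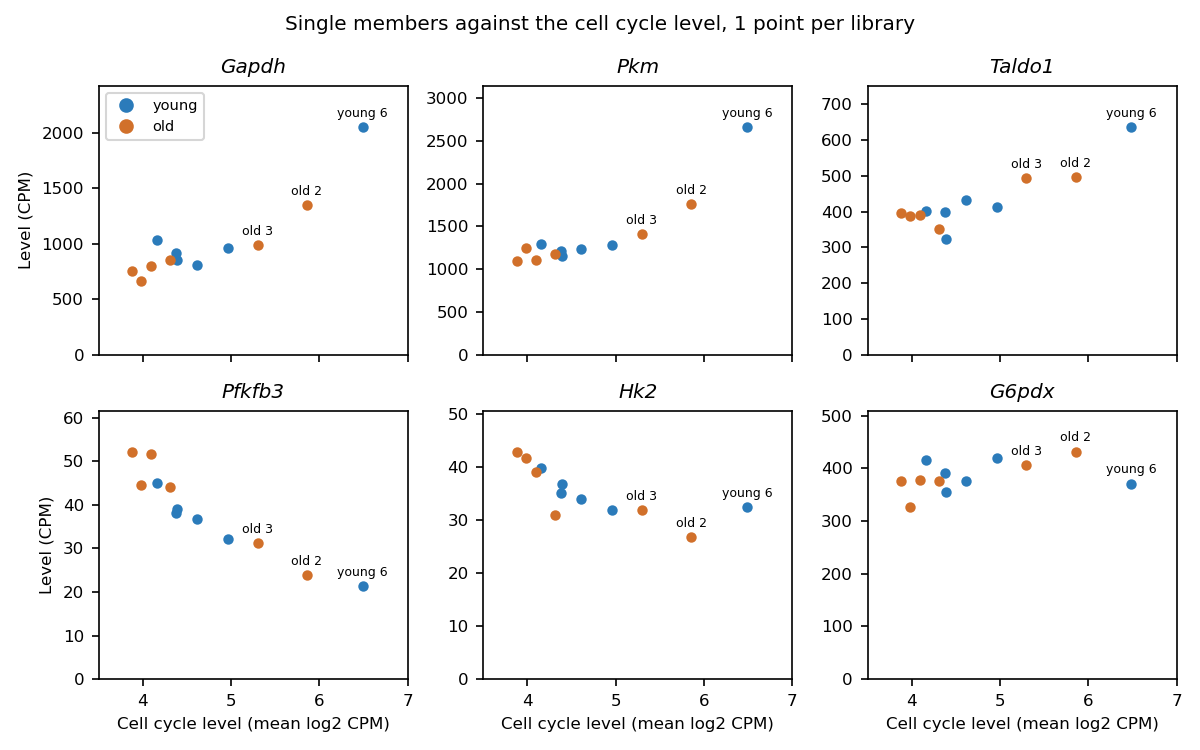
CPM of 6 members against the cell cycle level (mean log2 CPM of 54 cell cycle genes), 1 point per library (blue young, orange old), with the 3 libraries of highest level named. Gapdh, Pkm and Taldo1 are highest in young replicate 6, Pfkfb3 is lowest there, and G6pdx shows little change.

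These slopes rest largely on a few libraries. All 18 rising members were highest in young replicate 6, and old replicate 2 was second for 13 of them. Without young replicate 6, 14 of the 37 members passed (11 rising and 3 falling), beside 2244 of all 12704 genes tested. Hk3, Gpi1, Pfkp, Pfkfb4, Tpi1, Eno1, Ldha and Slc16a3 no longer passed, and Adpgk fell (-0.22, edgeR adjusted p = 0.00703). Of the 21 called members 12 passed with each of the 12 libraries left out in turn. Without young replicate 6 and old replicate 2, the 2 farthest from the median level, only Aldoc (0.67 per unit) and Pfkfb3 (-0.51) passed. These are 2 of the 37 members, beside 723 of all 12624 genes tested. Without old replicate 3 as well, 0 members passed in edgeR (5 members, or 13.5%, and 9.60% of all genes had an unadjusted p below 0.05; 143 genes in all passed), and 8 of the 18 rising members had a slope below 0, while the 3 falling members had slopes from -0.24 to -0.51. Over those 9 libraries the level spans only 3.88 to 4.96.

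The members were also fitted within each age alone. These fits reuse the libraries from which the members were called and are not independent of that call. Among young libraries the level was 6.49 in young replicate 6 and 4.16 to 4.96 in the others. Slopes among young libraries thus rest largely on that library. Among young libraries 18 of all 37 members passed with a rise, beside 1405 of all 11685 genes tested. Among old ones 14 of the 37 did, beside 1230 of 11667. Of the 18 members called rising over all 12 libraries, 15 passed with a rise among the 6 young libraries, 14 among the 6 old, and 12 in both. These last counts start from members already called, so they cannot be set beside the rates over all genes. Among the 12 were Gapdh (0.51 in young and 0.42 in old), Pkm (0.50 and 0.30), Pgk1 (0.49 and 0.28) and Tkt (0.20 and 0.29). Pfkfb3 fell in both (-0.45 and -0.55). Hk2 passed in the old (-0.30) and not in the young (-0.10, edgeR adjusted p = 0.286), and Pfkfb4 the other way round (-0.35 in young; -0.10 in old, edgeR adjusted p = 0.247). The difference in slope between the ages passed for 0 of the 37 members and 0% of all genes in edgeR, with 10 members and 13.1% of all genes at an unadjusted p below 0.05.

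Some cell type markers were called on the same slope, on which 15.1% of all genes fell and 17.8% rose. Of 12 macrophage markers 6 fell with the level and 0 rose, among them Adgre1 (F4/80, -0.34) and Csf1r (the M-CSF receptor, -0.32). Of the 16 neutrophil markers 9 could be tested and 3 fell (Csf3r by 0.71), and 8 were under 1 CPM. Of 10 monocyte and progenitor markers 8 could be tested, 4 fell and Cd34, of early progenitors, rose by 2.78, to 59.7 CPM in young replicate 6 and 9.40 and 8.27 CPM in old replicates 2 and 3, with 0.181 to 2.96 CPM elsewhere. Of the osteoclast markers 2 of 6 tested fell, of the dendritic cell markers 2 of 5 and of the stromal and endothelial markers 1 of 2, and of the erythroid and megakaryocyte markers 1 of 3 (Pf4) rose. None of the 2 lymphocyte and 2 mast cell, basophil and eosinophil markers tested passed. Lists with 2 to 6 genes tested are too small to set apart from the shares over all genes. The osteoclast markers summed to 437 CPM and the lymphocyte markers, nearly all Il7r, to 335 CPM in old replicate 6, against at most 233 and 158 CPM elsewhere. The dendritic cell markers were also highest there, at 92.4 CPM against at most 53.6 CPM elsewhere. Of the defining markers 4 erythroid and megakaryocyte, 2 stromal and endothelial and 1 osteoclast marker had 0 counts in all libraries. The part of these markers in the slopes of the members was not tested.

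Genes next to the 37 in metabolism were read from the same fit, in which 17.8% of all genes rose and 15.1% fell. At the entry of pyruvate into mitochondria 8 of 18 genes tested rose and 2 fell. Pyruvate carboxylase Pcx (0.92, edgeR adjusted p = 6.57e-07) and the malic enzymes Me1 (0.84) and Me2 (0.42) had the lowest p, and Pdhb, a pyruvate dehydrogenase subunit, rose by 0.16. The pyruvate carrier subunit Mpc1 fell by 0.37. Pcx was at 16.8 CPM in young replicate 6, 14.1 CPM in old replicate 2 and 10.6 CPM in old replicate 3, and at 3.12 to 8.35 CPM in the others. Of 38 other carbohydrate genes tested 11 rose and 4 fell. The serine synthesis enzymes that draw on 3-phosphoglycerate rose together, Phgdh by 0.95 (edgeR adjusted p = 1.99e-06), Psat1 by 0.71 and Psph by 0.50. Phgdh reached 90.6 CPM in young replicate 6 and 59.1 CPM in old replicate 2, with 10.1 to 30.3 CPM elsewhere.

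Of 23 known regulators of glycolysis tested 7 fell and 3 rose, beside 15.1% and 17.8% of all genes. Txnip, which restrains glucose uptake, fell by 0.48, Mlxip (MondoA), a glucose-sensing factor that drives Txnip, by 0.21, Nfe2l2 (NRF2), a driver of pentose phosphate genes, by 0.18 and Hif1a, the hypoxia-inducible factor subunit, by 0.34 (edgeR adjusted p from 0.00444 to 0.0113). Epas1, which encodes the related HIF-2 alpha, rose by 0.32. Of 20 hypoxia response targets outside glycolysis 6 rose and 3 fell, beside the same shares of all genes. Vegfa, the vascular growth factor, fell by 0.89, from 95.9 CPM in old replicate 1 to 12.7 CPM in young replicate 6, while P4ha2, a collagen prolyl hydroxylase, rose by 0.54 and Ddit4, an inhibitor of mTORC1, by 0.40. No gene of these 4 lists passed for old against young.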

How the data were processed

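RNA was isolated with TRIzol and made into libraries with a TruSeq RNA v2 kit, which keeps no strand, per the labels' protocols. The authors deposited whole, unnormalised counts per gene, and per the file headers they come from featureCounts 1.6.0 with gene models of Ensembl release 100 (GRCm38). The command set no strand, no counting by pair and no counting of reads with several alignments. Reads from either strand thus count for a gene. Records over exons of more than 1 gene were left unassigned as ambiguous (4.33% to 5.08% per library). The submitters' processing notes list FastQC and STAR without a version. Most counts were even, as when mates are counted singly, so counts are alignment records rather than molecules. Table columns were matched to samples by title, and 0 were left unused. Pairs of libraries differed with a chi-square of 4.77 to 162 per gene, and no library was taken as a duplicate.

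Tests on counts used edgeR 4.0.16 under R 4.3.3 (quasi-likelihood F test, robust, TMM scaling, filterByExpr, 12620 genes, Benjamini-Hochberg over all of them, threshold 0.05), once on age and once on the cell cycle level with age as a term. The level used log2 CPM with a prior count of 2. CPM are TMM-scaled and computed here. Lengths are those of the deposited table or, as an alternative, of the APPRIS principal transcript in GENCODE M21. Shares were tested in Python 3.11.15 with SciPy 1.17.1, exactly or over 100000 resamples. Both fits were first tested on simulated data with 50 genes changed at each fold. The age fit recovered 0 of 50 at 1.2-fold, 20 at 1.5-fold, 37 at 2-fold and 48 at 4-fold, with 6 false calls among 111. The slope fit recovered 9 of 50 at 1.2-fold per unit of the level, 33 at 1.5-fold, 48 at 2-fold and 48 at 4-fold. It made 9 false calls among 147.

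The members and gene lists were chosen with earlier results of these data known. Named with values were members past a threshold, members of steps with several isoforms and the most abundant of other steps, and up to 4 genes per other list past the threshold with the lowest p. Hif1a, Mpc1, Il7r, Pfkfb1 and Pfkfb2 lie within the lists and were named after their values were seen where that rule did not reach them. Alternatives were 3 other scalings, 2 other filters, DESeq2 1.42.0, a replicate block, other lengths, each library left out in turn, each age alone, a level from S phase genes, and 3 libraries left out together. Principal transcript lengths (for levels and shares), leaving out the 2 libraries farthest from the median level in the slope fit, and leaving out 3 libraries for the shares were added after seeing the data.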

Additional observations from a re-analysis of the deposited data

Results flagged for a closer look

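In 98 sets of 6 values, each a member's CPM or a share in one age, 21 had a lowest or highest library whose gap to the next took more of the range than Dixon's test allows, where chance gives about 1 in 20. Among the members' CPM this held for 16 of 37 (43.2%) in young and 4 of 37 (10.8%) in old libraries, beside 17.5% and 6.74% of all 12620 genes tested. Young replicate 6 thus stood apart over all genes too, and it was the highest young library by this measure for 11.1% of them. Of the 21 flagged sets, 17 were due to young replicate 6. It was the highest young library for Slc2a1 (43.7 CPM), Pfkp (165 CPM), Aldoa (1614 CPM), Tpi1 (529.5 CPM), Gapdh (2054 CPM), Pgk1 (362 CPM), Pgam1 (182 CPM), Eno1 (691 CPM), Pkm (2665 CPM), Ldha (974 CPM), Slc16a1 (12.9 CPM), Slc16a3 (56.2 CPM), Pdk1 (53.7 CPM), Pgd (669 CPM), Tkt (676 CPM) and Taldo1 (637 CPM). The widest gap was that of Pgk1, where the other 5 young libraries spanned 166 to 174 CPM. Young replicate 6 was also the lowest young library in the Hk2 share (2.27%, against 3.596% to 4.22% in the others).

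Among old libraries, old replicate 2 was the highest for Tpi1 (337 CPM) and Eno1 (448 CPM), old replicate 6 the lowest for Pfkl (43.7 CPM, against 55.9 to 59.6 CPM in the others) and old replicate 1 the highest for Pgm2 (38.9 CPM). Pfkl was thus level in 5 old libraries and low in 1, the library in which osteoclast, lymphocyte and dendritic cell markers were highest. The part of those markers in the Pfkl value was not tested.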

How the results depend on the processing

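For old against young the count of members called was 0 under each alternative, and so was the count of isoform shares. Over all genes 2 were called, against 4 with no low-count filter, 11 with DESeq2, 4 with the replicate block, 5 with the cell cycle level as covariate and 1 to 5 with 1 library left out (1 without young replicate 4, 5 without young replicate 3). For the slope on the cell cycle level the 21 members became 14 to 22 with 1 library left out and 25 with the replicate block, and the 4152 genes became 2244 to 4663 and 5318. Within one age alone 2549 (young) and 2374 (old) genes and 20 and 17 members were called. Without young replicate 6 and old replicate 2 there were 723 genes and 2 members, and without old replicate 3 as well 143 genes and 0 members. In that last fit slopes turned negative for Hk1 (-0.085), Hk3 (-0.31), Pfkp (-0.26), Aldoa (-0.031), Tpi1 (-0.12), Eno1 (-0.23), Ldha (-0.24) and Slc16a3 (-0.45), and without 2 libraries for Hk3 (-0.015), Ldha (-0.0057) and Slc16a3 (-0.074). Of the 2 shares that followed the level 1 remained without 2 libraries and 1 when centred within age (Hk2 in both), and 0 without 3 libraries. Fewer samples enter the fits that leave out libraries, and those without young replicate 6 also span less of the level. With 1 library left out, 2244 genes and 14 members passed without young replicate 6. Without any 1 other library 3259 to 4663 genes and 20 to 22 members passed. The cause of these losses was not tested. Of the 888 slopes over all members and 24 alternatives each, 62 lost the threshold, 11 of them with a change of sign. A further 19 gained it and 807 did neither. Only slopes of the 21 called members could lose the threshold, and only those of the 16 members not called could gain it.

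Replicate numbers were not shown to pair libraries. Deviations of same-numbered young and old libraries correlated above 0.1 in 4 of 6 pairs (from -0.17 to 0.39), and 2 of 6 young libraries correlated best with their own number. The median standard error over all genes was 0.13 for a log2 fold change between ages and 0.065 for a slope. This limits the changes that could be seen in these libraries.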
